A study of Mus musculus with 18 samples.

Results

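The cytosolic ribosome is built from a large and a small subunit, and each subunit holds ribosomal RNA and a set of proteins that are made in near equal numbers. Growing and dividing cells need many ribosomes, and the mRNAs for these proteins are among the most abundant in any cell. Most of them start with a run of pyrimidines, the terminal oligopyrimidine (TOP) tract, through which mTOR signaling, by way of the RNA-binding protein LARP1, sets both their translation and their stability. In the lung, cell division slows and surfactant synthesis increases as birth approaches. The transcripts of the ribosomal protein genes were followed here across 18 whole-lung arrays. Genes were taken by name (Rpl or Rps and a number, with Rplp0, Rplp1, Rplp2 and Rpsa) where a probe set carried that single symbol. This gave 59 genes, 37 of the large and 22 of the small subunit, of 19938 genes with a probe set of their own, and 215 of 35556 probe sets.

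The lungs came from 6 groups of 3. In the Scap line, floxed Scap was deleted in Scap-deleted lungs by Cre from SP-C-rtTA and (tetO)7CMV-Cre, with doxycycline given to the dam in early to mid gestation, and the floxed littermates without rtTA or without Cre were the controls, at E18.5 and at PN1, the day of birth. In the Insig line the same Cre system deleted floxed Insig1 on an Insig2-/- background at E17.5, and the controls carried the Insig2 deletion too. The SP-C promoter drives deletion only in respiratory epithelium and deletion was incomplete, so the RNA of each lung mixes deleted epithelium with all other lung cells. Scap escorts SREBP transcription factors, which switch on lipid synthesis, and the Insig proteins hold Scap back. Among the 18 arrays used here E17.5 is present only for the Insig line, so age and line cannot be told apart between E17.5 and the later ages.

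The whole-series checks were as follows. Scap was 9.22 to 9.47 on the log2 scale in E18.5 Scap-deleted lungs and 9.71 to 9.75 in their controls, and 9.53 to 9.65 against 9.76 to 9.92 at PN1. Insig1 was 8.21 to 8.58 in Insig1/2-deleted lungs and 9.29 or higher in their controls. The lung epithelial gene Sftpc was 13.28 to 13.50 in every lung, but the list of 16 lung epithelium markers was not steady: relative to its 18-array mean it was 0.12 to 0.15 in E18.5 controls and 0.01 to 0.08 in E18.5 deleted lungs, and 0.19 to 0.24 in PN1 controls against 0.12 in KO16 and −0.21 and −0.22 in KO17 and KO18. The surfactant protein gene Sftpb was 13.04 ± 0.05 (SD, n = 3) in PN1 controls and 12.47 ± 0.18 in PN1 deleted lungs, without overlap. The PN1 Scap-deleted arrays KO17 and KO18 stood apart: they correlated with each other at 0.9944 and with the other 16 at 0.9312 to 0.9599, while those 16 correlated among themselves at 0.9729 to 0.9975. Results for PN1 deleted lungs are therefore also given by lung or without them. In the E17.5 set, the lungs C19, C20 and KO22 resembled each other (0.9960 to 0.9967), as did C21, KO23 and KO24 (0.9932 to 0.9955), more than across these sets (0.9840 to 0.9914), so genotype does not line up with the closest pairs. Cardiac muscle markers were 1.71 above their 18-array mean in C21.

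The start sites of some of the genes named below are shown first, since the TOP tract lies there. Of the 59 genes, 47 matched an entry of the RefSeq promoter table (build GRCm38.p6). The windows run from 10 bases before the annotated start to 20 bases after it, and capitals mark a run of C and T that begins with C, within 5 bases of the start, and goes on for at least 4 further bases.
Rps21 (chr2:180257369-180257398, plus strand): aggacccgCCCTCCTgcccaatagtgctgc
Rps15a (chr7:118116128-118116157, minus strand): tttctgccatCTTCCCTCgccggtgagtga
Rps6 (chr4:86857348-86857377, minus strand): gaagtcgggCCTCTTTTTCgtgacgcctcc
Rps9 (chr7:3704031-3704060, plus strand): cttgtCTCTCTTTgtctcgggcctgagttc
Rps27l (chr9:66946076-66946105, plus strand): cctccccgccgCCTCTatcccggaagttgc
Rpl14 (chr9:120571507-120571536, plus strand): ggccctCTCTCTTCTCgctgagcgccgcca
Rpl7a (chr2:26910797-26910826, plus strand): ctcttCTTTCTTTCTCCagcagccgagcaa
Rplp2 (chr7:141447641-141447670, plus strand): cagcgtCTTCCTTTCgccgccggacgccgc
Rps13 (chr7:116334171-116334200, minus strand): caaacgtcggtgagtggcgtcacttcctgt
Rps3 (chr7:99483690-99483719, minus strand): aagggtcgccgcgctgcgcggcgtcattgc
Rpl5 (chr5:107900518-107900547, plus strand): cgtcgcttgcgtgctggtggtgctacatac
The annotated start of the last 3 genes has no such run. Rps21 and Rps27l each have a further annotated start, not shown, without it. Over the 47 genes, 18 (38.3%) had the run at an annotated start, against 21.2% of the 27025 genes of the table. The genes shown have it more often than the 47 genes do, so they do not stand for the family. Where transcription starts in these lungs was not examined, so a missing run says only that these letters are not in this window. In the 250 bases before the start, searched on both strands, ACTTCCGG stood in 6 of 47 genes (12.8%, against 3.2% of all), TATAAA in 3 (6.4%, against 14.3%), CACGTG in 4 (8.5%, against 6.9%) and TCACNCCAC in 0 (against 1.2%). These matches describe the windows and are not shown to be binding sites. Rps21, with the run at the start shown, and Rps13, without it, were both among the genes with the largest differences below. Rps6, with the run, was the steadiest by the probe set used.

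Signal was high for most genes, and 57 of the 59 passed the filter on low values. The other 2 were Rpl39l, a paralog best known from male germ cells, at 5.19 to 5.40 over the 18 lungs, and Rpl3l, a paralog of striated muscle, at 5.98 to 6.25. The testis paralog Rpl10l was also dim, at 6.94 to 7.62. Levels of different genes are not compared, because each probe set has its own response. The range over the 18 lungs had a median of 0.54 over the genes and was smallest for Rps6 (0.13) and largest for Rps21 (1.62). Rps6, the small subunit protein that S6 kinases phosphorylate, therefore lay between 13.14 and 13.27 in every lung, and Rpl21 between 12.93 and 13.11. These are the values of the brightest of several probe sets. Over the 8 probe sets of Rps6, the difference between deleted lungs and controls at PN1 ran from 0.04 to 0.21. Over the 9 of Rpl21 it ran from −0.17 to 0.07. By mean signal, the median difference between PN1 and E18.5 controls was −0.15 for the 33 genes with a mean of 12 or above, −0.20 for the 14 genes from 10 to 12 and −0.13 for the 12 genes below 10.

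**Figure D1:**
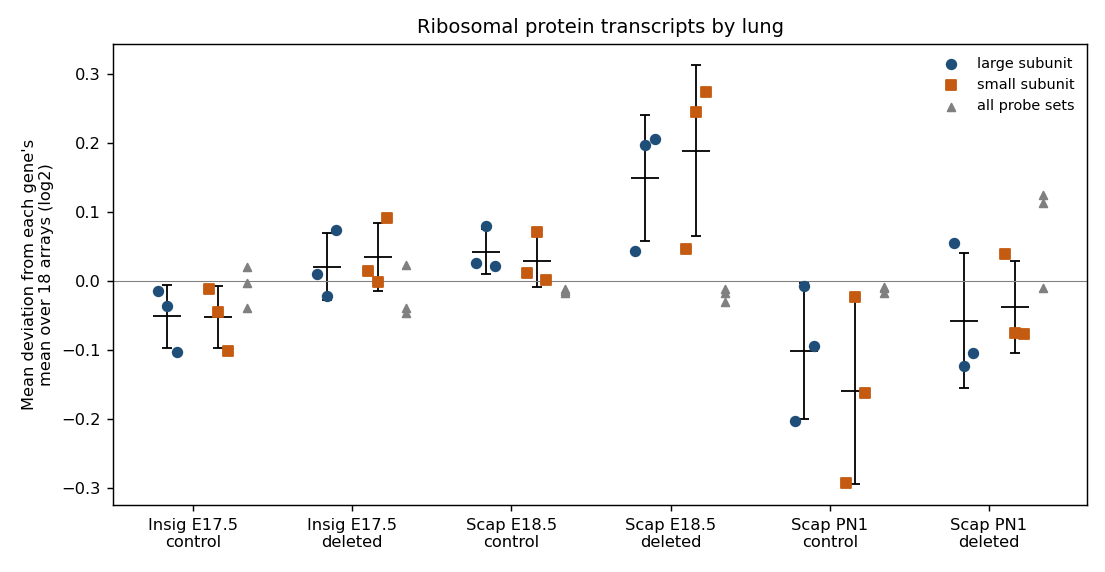
Mean deviation of the large subunit genes (circles) and small subunit genes (squares) from each gene's mean over the 18 arrays, in log2 units, by group, with group mean and SD (black, n = 3 lungs) and the mean over all probe sets (triangles). The E18.5 Scap-deleted lungs KO11 and KO12 lie highest (0.20 to 0.27) and the PN1 control C13 lowest (−0.20 and −0.29), while all probe sets stay within −0.05 to 0.02 except in KO17 and KO18 (0.11 and 0.12).

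Both subunits moved together from lung to lung. Relative to each gene's mean over the 18 arrays, the large subunit averaged 0.04 ± 0.03 (SD, n = 3) in E18.5 Scap controls, 0.15 ± 0.09 in E18.5 Scap-deleted lungs, −0.10 ± 0.10 in PN1 controls, −0.06 ± 0.10 in PN1 deleted lungs, −0.05 ± 0.05 in E17.5 controls and 0.02 ± 0.05 in E17.5 Insig1/2-deleted lungs. The small subunit followed the same order at 0.03 ± 0.04, 0.19 ± 0.12, −0.16 ± 0.14, −0.04 ± 0.07, −0.05 ± 0.05 and 0.03 ± 0.05. The E18.5 deleted mean was the highest and the PN1 control mean the lowest for both subunits, and most neighbouring groups overlapped within their SD. The genes of one lung are not independent measurements, as the PN1 controls show: all 59 genes were below the group mean in C13, all 59 were above it in C14, and 26 were above it in C15. Among all probe sets tested, 46.5%, 54.4% and 50.7% were above the group mean in these lungs. A group difference in this family is thus a difference between 3 lungs and 3 lungs, whatever the number of genes.

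The first question was how the family changed across birth in control lungs. Ribosomal protein transcripts were lower at PN1 than at E18.5 for 55 of 57 genes, with a median difference of −0.18 (0.884-fold), −0.18 for the large and −0.20 for the small subunit, while the median over all probe sets was 0.01. For 38 of 57 genes every PN1 control was below every E18.5 control (66.7%), against 16.5% of all probe sets tested. No gene was higher in every PN1 control. None passed an adjusted p of 0.05 in limma (lowest 0.0924), where 1.39% of all probe sets were called lower. At an unadjusted p under 0.05, 15 genes were lower and 0 higher, against 7.25% of all probe sets lower and 6.21% higher. The methods' unmoderated test, run here at an adjusted p of 0.05 with no limit on fold change, called 1 gene lower (1.05% of all probe sets). At an adjusted p of 0.01 and a 1.5-fold change, the stricter limits that the methods give for the Insig line, it called 0 of the 57 genes in each of the comparisons described here. Fits on these 2 groups alone called 5 (5.4% of all probe sets), and without KO16, an array of neither group that enters the shared spread, 8 genes were called lower (5.95% of all probe sets).

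Rpl22, a large subunit protein needed for early T cell development, was 9.60, 9.62 and 9.59 in the E18.5 controls and 9.30, 9.44 and 9.31 in the PN1 controls. The groups did not overlap and the difference was −0.26 (SE 0.07, limma adjusted p = 0.0924, exact permutation p = 0.1, the smallest that 3 against 3 lungs allow). Rps9, a small subunit protein, was 12.36, 12.38 and 12.15 at E18.5 and 11.83, 12.06 and 11.81 at PN1. By its brightest probe set it showed the largest difference, −0.40 (SE 0.11, limma adjusted p = 0.0924). Its other probe set gave −0.24. Rpl5, which joins the large subunit with a small ribosomal RNA and can bind the p53 regulator Mdm2, was 12.39, 12.47 and 12.37 and then 12.06, 12.24 and 12.14. Its difference was −0.26 (SE 0.08, limma adjusted p = 0.126), again without overlap. The small subunit protein Rpsa was 11.98 to 12.13 in E18.5 controls and 11.58 to 11.87 in PN1 controls, without overlap, a difference of −0.30 (SE 0.10). Rps4x, an X-linked small subunit gene, had a difference of −0.24 with no overlap and Rps19, which is mutated in human Diamond-Blackfan anemia, one of −0.22. Even the steady Rps6 was lower in each PN1 control (13.15, 13.18 and 13.14) than in each E18.5 control (13.22, 13.26 and 13.22). The stalk proteins, which recruit the translation factor GTPases, differed less: Rplp0 by −0.10, Rplp1 by −0.04 and Rplp2 by −0.13, each with overlap. The 2 genes above 0 were Rpl12 (0.36), with E18.5 controls from 7.13 to 7.71 and PN1 controls at 7.39, 8.02 and 7.99, and Rps27l (0.01), a p53 target related to Rps27. Both overlapped between ages. Over the 57 genes the differences ran from −0.40 to 0.36.

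**Figure D2:**
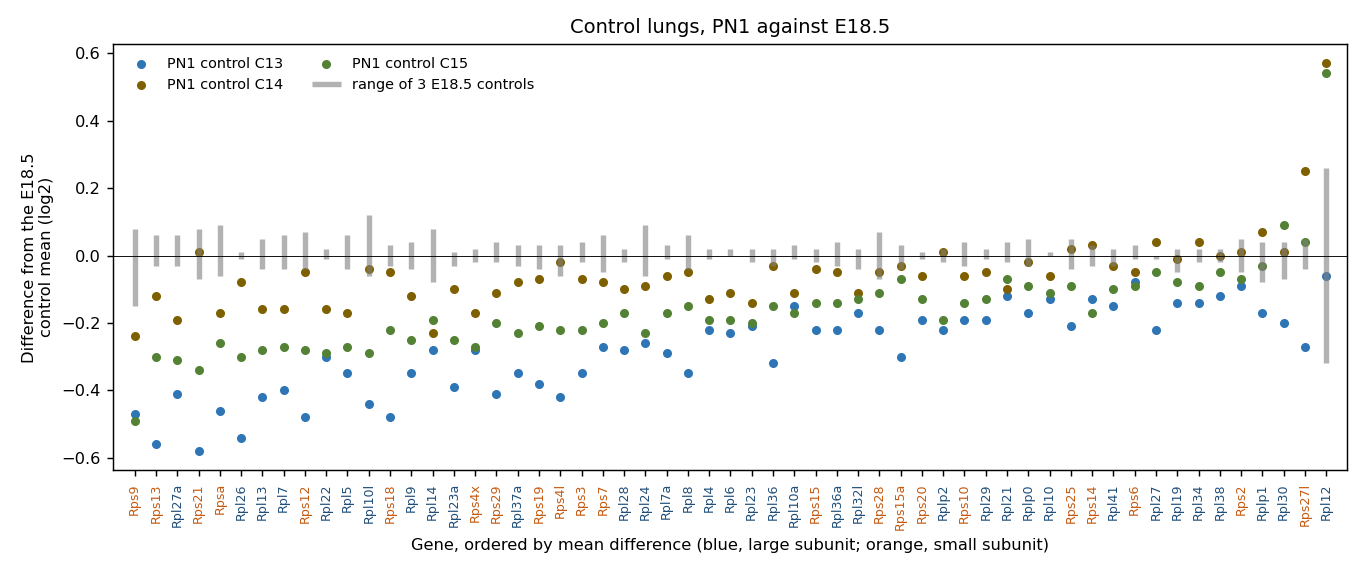
Difference of each PN1 control lung from the E18.5 control mean (log2, y axis) for the 57 genes tested (x axis, ordered by mean difference), with the range of the 3 E18.5 controls as grey bars. Points of all 3 PN1 controls lie below the bar for 38 genes, with C13 lowest for most genes and C14 nearest to the bar.

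The elongation factors and other known TOP mRNAs had differences like those of the ribosomal proteins, and the other translation lists did not. Of 14 elongation factors and other known TOP mRNAs tested, 14 were below 0 in the same comparison, with a median of −0.19, and 12 were lower in every PN1 control. They included Eif4b (−0.46), a helicase cofactor of initiation, and Eif3e (−0.42), an eIF3 subunit, neither of which passed the limma test. Of 26 other translation initiation factors, 21 were above 0 (median 0.07). Of 44 genes for RNA polymerase I and ribosome assembly, 37 were above 0 with a median of 0.13, and 19 were higher in every PN1 control against 17.6% of all probe sets, among them Pno1 (0.58) and Ddx21 (0.53), with none passing the limma test. Mitochondrial ribosomal proteins, which build the separate ribosome of that organelle, had a median of 0.02 over 77 genes, with 2 higher and 3 lower without overlap. Cell cycle markers were lower at PN1 with a median of −0.89 over 22 genes, and 10 of them fell by the limma test, among them Kif11 (−1.50, adjusted p = 0.00388), a spindle motor, and Top2a (−1.35, adjusted p = 0.00664). Over the lungs the cell cycle list stood between −0.73 and −0.50 relative to its 18-array mean in PN1 controls and between −0.01 and 0.31 in E18.5 controls. Neutrophil markers were higher, with a median of 1.43, and 4 of 8 rose by the limma test. The part of dividing cells or of neutrophils in the lower ribosomal protein values was not tested, and in whole lung a smaller number of cells of a type and less RNA in each cannot be told apart. Of 18 regulators, which include Myc, Mycn, Mtor and Larp1, 10 were above 0 (median 0.01).

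**Figure D3:**
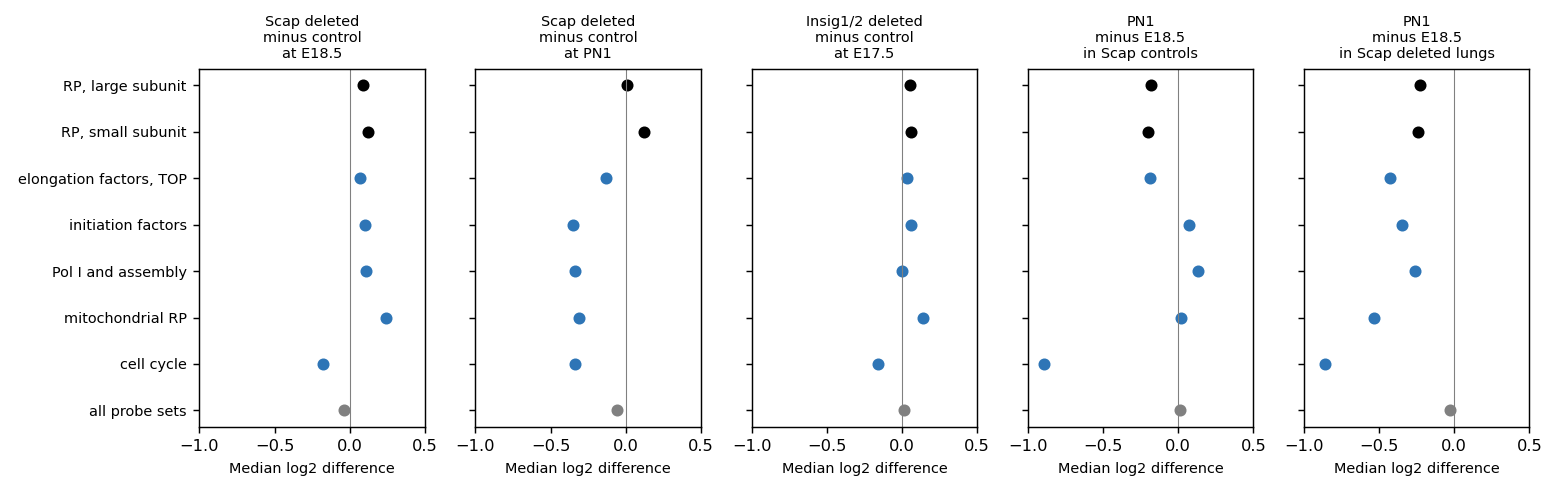
Median log2 difference (x axis) of the ribosomal protein genes (RP, black), 5 other gene lists (blue) and all probe sets tested (grey) in 5 comparisons. In the control age comparison the ribosomal proteins (−0.18 and −0.20) and the elongation factor and TOP list (−0.19) lie left of 0, while initiation factors (0.07) and assembly genes (0.13) lie right of it.

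In E18.5 lungs, Scap deletion was compared with control littermates. Ribosomal protein transcripts were higher for 50 of 57 genes, with a median of 0.10 (1.07-fold), 0.09 for the large and 0.12 for the small subunit, against −0.04 for all probe sets. In 18 of 57 genes every deleted lung was above every control (31.6%), against 14.5% of all probe sets, and in 2 every deleted lung was below, against 21%. None passed the limma test (lowest adjusted p 0.511, where 0.00439% of all probe sets were called higher and as many lower), and 0 passed in the unmoderated test. At an unadjusted p under 0.05, 9 genes were higher and 0 lower, against 4.39% of all probe sets higher and 4.85% lower. With limma array weights, 11 of 57 genes were called higher, against 7.02% of all probe sets.

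The difference came from 2 of the 3 deleted lungs. Relative to the control mean, the genes averaged 0.18 in KO11 and 0.19 in KO12 but 0.01 in KO10, and 57, 51 and 33 of the 59 genes were above the control mean in KO11, KO12 and KO10. Of all probe sets, 42.3%, 42.3% and 46.2% were above it in these lungs. Without KO10, 44 genes were higher without overlap (27.3% of all probe sets), and without the control C8, 32 (19.3%). The higher values in KO11 and KO12 stood beside those of the mitochondrial ribosomal proteins, which were 0.36 and 0.48 above their 18-array mean in these lungs, 0.05 in KO10 and 0.01 to 0.08 in the controls. Of 77 mitochondrial ribosomal protein genes 73 were above 0 (median 0.24) and 27 were higher without overlap. Mesenchyme markers were −0.27 and −0.40 in KO11 and KO12, −0.04 in KO10 and −0.11 to 0.01 in the controls, with 1 of 9 markers above 0 between groups. Endothelium markers were −0.20 and −0.16 in KO11 and KO12, against 0.00 in KO10 and 0.02 to 0.04 in the controls. The epithelium list, given above, was lower in every deleted lung than in every control, with 7 of its 16 markers above 0 (median −0.06), 1 higher and 4 lower without overlap. Cell cycle markers had a median of −0.18, with 5 of 22 above 0, 5 lower and 0 higher without overlap. Of all probe sets, 41.7% were above 0, and 14.5% were higher and 21% lower without overlap. The part of these cell types and of dividing cells in the result was not tested.

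The largest difference was in a small subunit gene, Rps21, which was 9.17, 9.26 and 9.11 in controls and 9.21, 9.86 and 10.09 in deleted lungs. KO10 lay among the controls while KO11 and KO12 lay well above them, and the difference was 0.54 (SE 0.21, limma adjusted p = 0.525). Rps13 was 11.34, 11.43 and 11.34 in controls and 11.44, 11.90 and 12.02 in deleted lungs. All deleted lungs were above all controls, KO10 by little, with a difference of 0.42 (SE 0.20). Rps14, whose loss in humans gives the anemia of a chromosome deletion syndrome, was at most 12.06 in controls and 12.24, 12.52 and 12.57 in deleted lungs. Here KO10 too was clear of the controls, and the difference was 0.42 (SE 0.11, limma adjusted p = 0.511, exact permutation p = 0.1). Rps27l differed by 0.41 and Rps3, which lines the mRNA entry channel, by 0.30 (12.11, 12.17 and 12.12 against 12.22, 12.54 and 12.54), both without overlap. The smallest of the overlap-free differences were those of Rps20 (0.06) and Rps15 (0.08).

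Among large subunit genes, Rpl30 differed by 0.27 and Rpl5 by 0.24, both without overlap. Rpl14 was 8.84, 8.92 and 8.76 in controls and 8.85, 9.40 and 9.34 in deleted lungs, a difference of 0.36 (SE 0.13) with KO10 among the controls. Rpl12, which binds at the base of the stalk, differed by 0.44 (SE 0.24), with KO10 (7.52) within the controls (7.13 to 7.71). The genes that were lower in every deleted lung were the testis paralog Rpl10l (7.45, 7.62 and 7.44 against 7.33, 7.32 and 7.27, a difference of −0.20) and Rpl29, a heparin-binding protein (−0.10). The remaining stalk and scaffold proteins were close to the controls, with Rplp0 at 0.06, Rplp1 at 0.02, Rplp2 at 0.04 and Rpsa at 0.15, each overlapping. Rps6 differed by 0.01. Over the 57 genes the differences ran from −0.20 to 0.54.

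**Figure D4:**
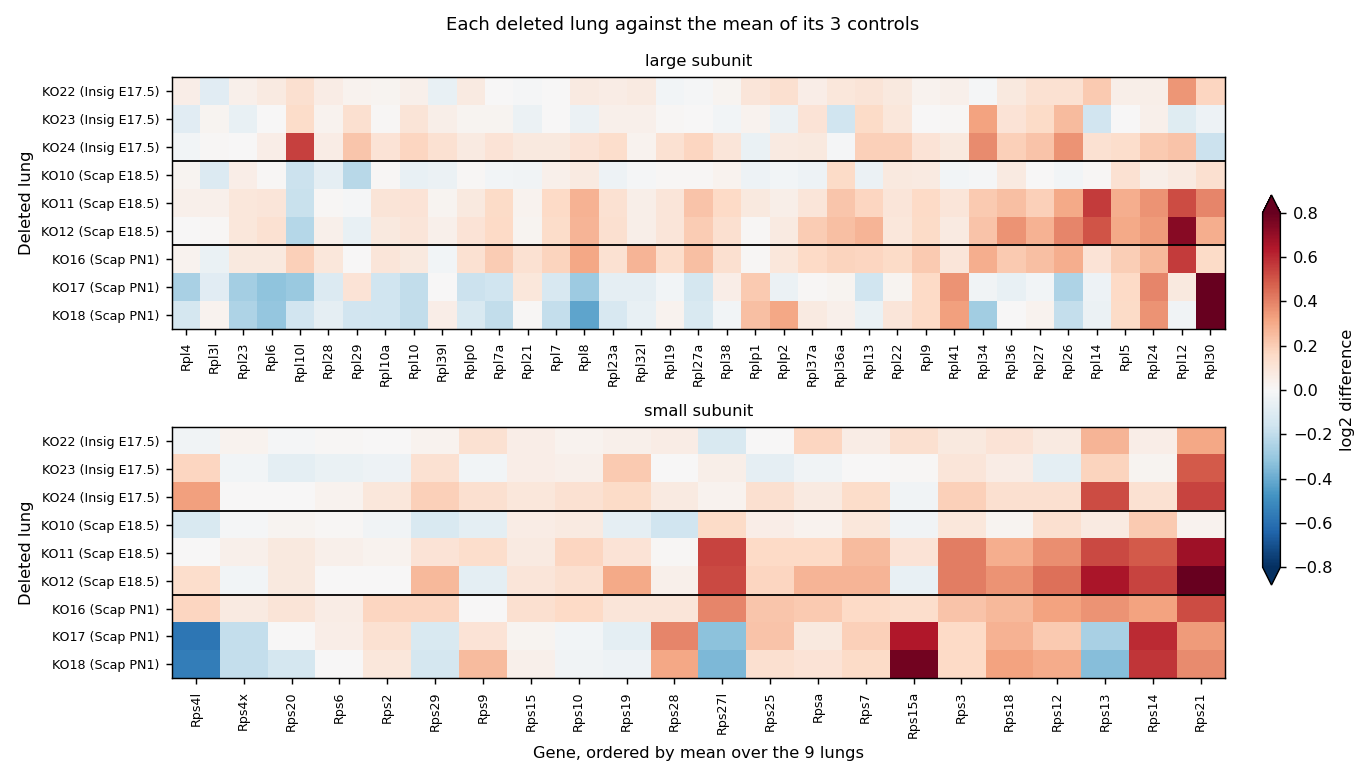
Log2 difference of each of the 9 deleted lungs (rows) from the mean of its 3 controls, for the 37 large subunit genes (top) and 22 small subunit genes (bottom), ordered by mean over the lungs. KO11 and KO12 are red for most genes, KO10 is pale, KO16 is red for 55 of 59 genes, and KO17 and KO18 share a mixed pattern with Rpl30 (0.92 and 1.22, above the colour scale) and Rps15a high and Rps4l and Rpl6 low.

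At PN1 the deleted lungs were of unlike kinds. Over the 57 genes the median difference was 0.05, 0.01 for the large and 0.12 for the small subunit, against −0.06 for all probe sets, and 33 genes were above 0. The sign of this median depends on the scaling and on the arrays kept. With each array centred on its own median it was −0.09, and after quantile normalization 0.089, with 44 of 57 genes above 0. It was −0.03 with array weights, −0.003 without KO16 and 0.17 without KO17 and KO18. In 14 of 57 genes every deleted lung was above every control (24.6%), against 5.59% of all probe sets, and in 0 every deleted lung was below, against 11% of all probe sets. None passed the limma test, where 0% of all probe sets were called higher and 0.00877% lower. At an unadjusted p under 0.05, 10 genes were higher and 0 lower, against 11.5% and 20.8% of all probe sets, and the unmoderated test called 0. A fit on all 18 arrays called 5 of 57 genes higher, against 4.61% of all probe sets. Without the control C14, 24 genes were higher without overlap (8.54% of all probe sets).

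Of the PN1 deleted lungs, KO16 alone had most genes above the control mean, with 55 of 59 genes above the control mean, an average of 0.17 and values from −0.05 to 0.55, where 45.5% of all probe sets were above. In KO17 and KO18 the average was 0.02 and 0.03, 27 and 29 of 59 genes were above the control mean, and the genes spread widely: the SD between genes was 0.26 and 0.29, against 0.12 in KO16 and 0.08 to 0.21 in the deleted lungs of E18.5 and E17.5. All probe sets spread more widely still in these lungs, with an SD of 0.70 and 0.71 against 0.21 in KO16. Differences past 0.3 in either direction were seen for 7 higher and 4 lower of 57 genes in KO17 and for 9 higher and 5 lower in KO18, where 20.6% and 22% of all probe sets were higher and 33.8% and 33.6% lower by that amount. Without KO16, limma called 7 genes higher (24.1% of all probe sets) and 8 lower (37.8%), a smaller share than among all probe sets in both directions. Those higher were Rpl24, Rpl30, Rpl41, Rplp1, Rps14, Rps15a and Rps28, and those lower Rpl10, Rpl10a, Rpl23, Rpl4, Rpl6, Rpl8, Rps4l and Rps4x. The other lists of the translation machinery were low in these lungs: mitochondrial ribosomal proteins stood at −0.55 and −0.54, against 0.31 in KO16 and −0.14 to 0.22 in the controls, and RNA polymerase I and assembly genes at −0.37 and −0.38, against 0.29 in KO16 and 0.01 to 0.23 in the controls. Some lists of cell type markers were also low in them, and others were not. Mesenchyme markers stood at 0.03 and 0.06, against −0.31 to 0.11 in the controls. Endothelium markers stood at 0.05 and 0.06 (controls −0.05 to 0.27), and lymphocyte and thymus markers at 0.20 and 0.13 (controls 0.10 to 0.22). Macrophage and monocyte markers stood at −0.32 in both, against 0.25 in KO16 and 0.23 to 0.40 in the controls (1 of 7 above 0 between groups), erythroid markers at −0.23 and −0.21, against −0.05 and −0.06 to 0.11 (3 of 8 above 0), and the epithelium list, given above, had 3 of 16 above 0. Cell cycle markers stood at −1.09 and −1.04, against −0.43 in KO16 and −0.73 to −0.50 in the controls. The part of these cells in the PN1 values was not tested.

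Rpl30, a large subunit protein, was 7.92, 8.13 and 8.21 in PN1 controls and 8.24, 9.0 and 9.31 in deleted lungs. KO16 was barely above the controls while KO17 and KO18 were far above, and the difference of 0.76 (SE 0.22) had a limma adjusted p of 0.0914. Rps15a was 8.44, 8.71 and 8.67 in controls and 8.75, 9.25 and 9.38 in deleted lungs, with the same arrangement and a difference of 0.52 (SE 0.15, limma adjusted p = 0.0914). Rps14 was 11.90, 12.06 and 11.86 in controls and 12.26, 12.54 and 12.51 in deleted lungs. This was clear of the controls in all 3 lungs, at 0.50 (SE 0.11, limma adjusted p = 0.0897, exact permutation p = 0.1). Rps21 was 8.60, 9.19 and 8.84 in controls and 9.40, 9.22 and 9.26 in deleted lungs, without overlap but close to C14, and differed by 0.42 (SE 0.21). Rpl24, which bridges the subunits, differed by 0.34 (SE 0.10) with every deleted lung (11.27, 11.40 and 11.37) above every control (10.95, 11.12 and 10.98). On the low side, Rps4l, annotated as a transcribed pseudogene, was 9.44, 9.84 and 9.64 in controls and 9.81, 9.06 and 9.09 in deleted lungs, low only in KO17 and KO18, with a difference of −0.32 (SE 0.18). Rpl8 was 11.37, 11.67 and 11.57 in controls and 11.85 in KO16 but 11.25 and 11.12 in KO17 and KO18. Rps2 (0.13), Rpl9 (0.17) and Rps7 (0.17) had the smaller of the differences without overlap, and over the 57 genes the differences ran from −0.32 to 0.76.

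**Figure D5:**
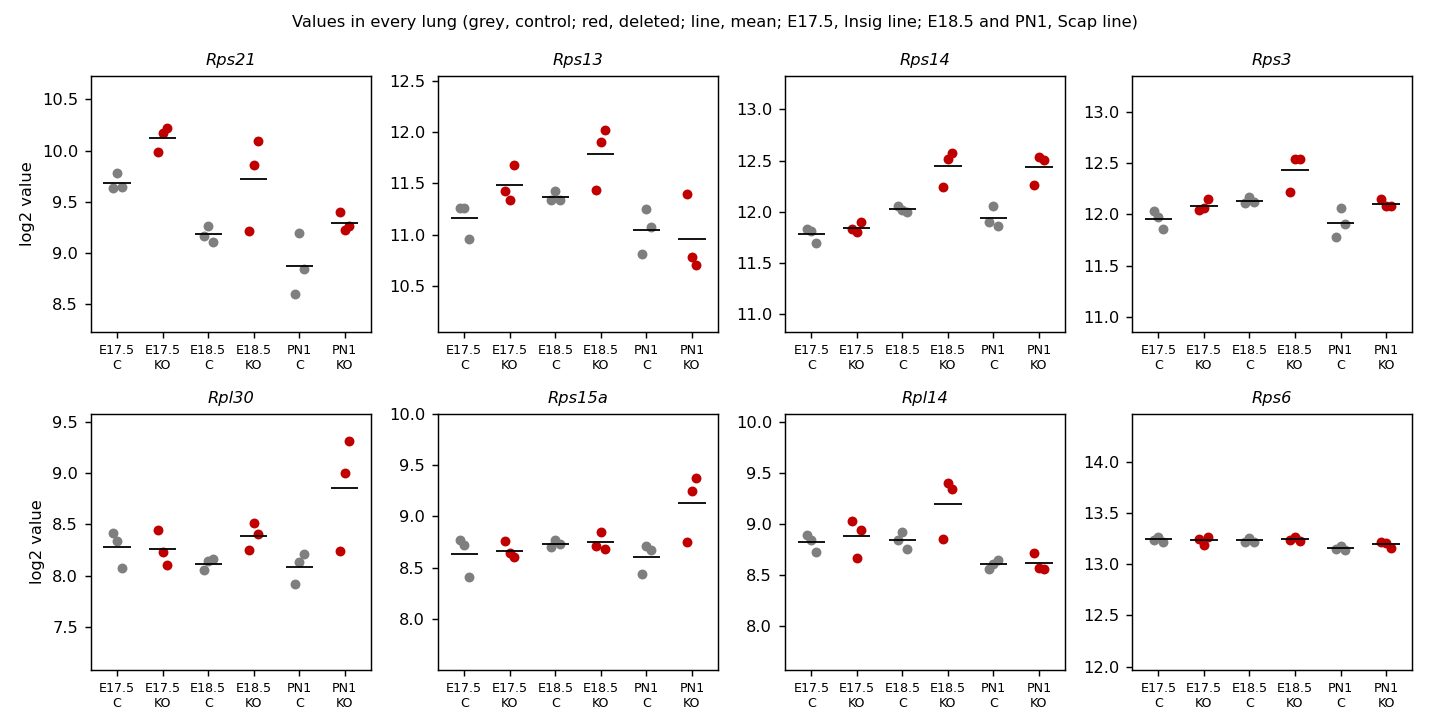
Log2 values of 8 genes in every lung (grey, control; red, deleted; line, group mean; n = 3) with axes of equal height. Rps14 is above the controls in all Scap-deleted lungs, Rpl30 and Rps15a reach 9.0 to 9.38 only in KO17 and KO18, and Rps6 stays between 13.14 and 13.27.

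The deletion comparisons at E18.5 and PN1 share no lungs. The genes higher in every deleted lung at both ages were Rpl5, Rpl9, Rpl30, Rps3, Rps7 and Rps14, which are 6 of the 18 genes at E18.5 and 6 of the 14 at PN1. Of all probe sets, 250 of 22800 (1.1%) were higher in every deleted lung at both ages, and whether the 6 exceed what the separate counts give was not tested. The effect at PN1 minus that at E18.5 had a median of −0.08 (large −0.10, small −0.03), with 0 genes called in limma, 1 higher and 0 lower at an unadjusted p under 0.05, against 8.25% and 10.1% of all probe sets. Its sign turned to 0.06 without KO17 and KO18, and without KO16 4 genes were called higher (24.9% of all probe sets) and 10 lower (33.5%). The largest of these interactions were Rps15a (0.51, SE 0.21) and Rpl30 (0.49) on the higher side and Rps13 (−0.50, SE 0.28) and Rps27l (−0.50, SE 0.29) on the lower, all with limma adjusted p of 0.265 or above.

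In E17.5 lungs, deletion of Insig1 on the Insig2-/- background was compared with controls, and the differences were small and mostly above 0. Transcripts were higher for 50 of 57 genes, with a median of 0.05 (1.04-fold), 0.05 for the large and 0.06 for the small subunit, against 0.01 for all probe sets. In 12 of 57 genes every deleted lung was above every control (21.1%), against 5.83% of all probe sets, and in 0 every deleted lung was below, against 4.22%. None passed the limma test, in which 0% of all probe sets were called in either direction, and 0 passed the unmoderated test. At an unadjusted p under 0.05, 3 genes were higher and 0 lower, against 2.2% of all probe sets higher and 1.9% lower, and array weights called 6 of 57 higher, a smaller share than the 18.4% of all probe sets. With these weights the median over the genes was 0.011, with 37 of 57 above 0. The average over the genes relative to controls was 0.06 in KO22, 0.04 in KO23 and 0.13 in KO24, with 49, 38 and 53 of 59 genes above the control mean, while C21 had 9 of 59 above it and C19 had 52. The count without overlap was 25 without C19 (10% of all probe sets), 15 without C20 (9.61%), 12 without C21 (11.8%), 19 without KO22 (25.7%), 23 without KO23 (7.99%) and 12 without KO24 (8.4%). The median was 0.028 without C21, the control with the cardiac markers, and 0.044 without KO24. Mitochondrial ribosomal proteins had 74 of 77 genes above 0 (median 0.14), and stood at −0.12, −0.02 and 0.14 in KO22, KO23 and KO24 against −0.17 to −0.08 in the controls. Cell cycle markers had 1 of 22 above 0 (median −0.16). Mesenchyme markers had 2 of 9 above 0 (median −0.21), at 0.27, −0.01 and 0.10 in KO22, KO23 and KO24 against 0.26 to 0.33 in the controls, and macrophage and monocyte markers had 6 of 7 above 0 (median 0.11). The part of these cells in the result was not tested.

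By the brightest probe sets Rps21 was again the largest, at 9.63, 9.78 and 9.64 in controls and 9.99, 10.17 and 10.22 in deleted lungs. The groups were well apart, with a difference of 0.44 (SE 0.09, limma adjusted p = 0.758, exact permutation p = 0.1). The other probe set of Rps21 gave 0.31, and the 3 probe sets of Rps13 gave 0.32 to 0.39. Rps13 was 11.26, 11.26 and 10.96 in controls and 11.43, 11.34 and 11.68 in deleted lungs, a difference of 0.32 (SE 0.12) without overlap. Rpl10l was 7.19, 7.03 and 6.97 against 7.20, 7.22 and 7.62, where the difference of 0.28 (SE 0.13) came mostly from KO24. Rpl26 was 10.64, 10.65 and 10.57 against 10.74, 10.87 and 10.98, a difference of 0.24 (SE 0.08) without overlap. Rps3 differed by 0.12, Rpl37a by 0.08, Rps15 by 0.06 and Rplp0 by 0.05, each without overlap, and over the 57 genes the differences ran from −0.03 to 0.44. Rps3 was the only gene higher in every deleted lung in all 3 deletion comparisons, as were 21 of 22438 probe sets. Rps14, Rpl30 and Rps15a, the genes with the largest values at PN1, had differences of 0.07, −0.02 and 0.03 at E17.5, each with overlap.

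The last comparison set PN1 against E18.5 among Scap-deleted lungs. The median was −0.23 (0.854-fold; large −0.23, small −0.24), against −0.03 for all probe sets, and 50 of 57 genes were below 0. In limma, 25 genes fell (43.9%), against 20.1% of all probe sets called lower, and 0 rose, against 17.5%. Of the 25, 17 were of the large and 8 of the small subunit. In 28 genes every PN1 lung was below every E18.5 lung, against 17.3% of all probe sets, and in 1 (Rps2) every PN1 lung was above, against 16.7%. The calls rest on few lungs: the count was 0 without KO11 (5.88% of all probe sets), 0 without KO17 (5.06%), 0 without KO18 (5.67%) and 0 without KO17 and KO18 together (3.13%), 2 without KO12 (6.82%), 16 without C7 (15.1%) or without C9 (15.3%), and 38 without KO16 (40%). It was 0 in a fit on these 2 groups alone (0.197%), 13 after quantile normalization (18.9%) and 41 with array weights (41.9%). The median difference lay between −0.29 and −0.20 when 1 lung was left out. It was −0.147 (large −0.102) without KO17 and KO18, −0.141 after quantile normalization and −0.402 with each array centred on its own median.

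Rps13 fell most, from 11.44, 11.90 and 12.02 at E18.5 to 11.40, 10.78 and 10.70 at PN1. The PN1 lung KO16 nearly reached the E18.5 lung KO10, and the other lungs were far apart, at −0.83 (SE 0.20, limma adjusted p = 0.0166). Rpl14 went from 8.85, 9.40 and 9.34 to 8.72, 8.57 and 8.56, without overlap, and fell by 0.58 (SE 0.13, limma adjusted p = 0.0136). Rpl26 fell by 0.58 (SE 0.16) and Rpl8 by 0.52 (SE 0.17), with KO16 at or above KO10 in both. Among genes of known extra roles, Rpl5 fell by 0.33 (SE 0.08, limma adjusted p = 0.0163), Rpl22 by 0.25 and Rps4x by 0.35, each without overlap. Rpsa and Rps3, which fell by 0.32 and 0.33, did not overlap either, and Rps19 and Rps29 fell by 0.34 and 0.36. Rpl30 and Rps15a went the other way, at 0.46 (SE 0.22) and 0.38 (SE 0.15), with KO16 below the E18.5 lungs for Rpl30 and among them for Rps15a, and limma adjusted p of 0.109 and 0.0607. The TOP and elongation factor list had 14 of 14 genes below 0 (median −0.43) with 8 called lower, the mitochondrial ribosomal proteins 1 of 77 above 0 (median −0.53) with 26 called lower, and the cell cycle markers 16 of 22 called lower (median −0.86). This comparison shares its deleted lungs with the deletion comparisons, so their values are given side by side and not as separate evidence.

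The reading of single genes is limited by copies. Ribosomal protein genes have many processed pseudogenes with nearly the same sequence, and signal from such copies cannot be told apart by these probes. A further 16 ribosomal protein genes, among them Rpl11, Rpl13a and Rps24, had only probe sets that list several genes and were not used. Of the 59 genes, 39 had several probe sets, up to 14 for Rps12, and the brightest was used. With the mean over a gene's probe sets instead, the median for Scap deletion at E18.5 was 0.114. For the small subunit it was 0.196, against 0.121 with the brightest. Between a gene's probe sets the differences spread by a median of 0.05 at E18.5, 0.06 at PN1, 0.03 at E17.5, 0.05 between control ages and 0.10 between deleted ages. The sign differed between probe sets in 5, 5, 2, 1 and 2 of the 39 genes. The widest spread was in Rpl7a between deleted ages (0.54, from −0.81 to −0.27), where it is one of the 25 genes that fell. Next were Rps9 at E18.5 (0.42) and Rpl7a at PN1 (0.41).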

How the data were processed

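Whole-lung RNA from 18 mice (3 per group) was hybridized to Mouse Gene 1.0 ST arrays. The deposited table holds log2 values per probe set, which the authors processed in GeneSpring GX; the summarization and background steps are not given in the sources used here, and the number of arrays limits the precision. Groups came from the sample labels. The members and the gene lists were chosen with earlier results of these data known. Probe sets were named through the platform annotation (21789 with 1 symbol, 1621 with several, 12146 with none), and the brightest probe set stood for a gene. Probe sets at or above the 35th percentile in at least 66% of the arrays were kept, and group means were fitted with limma 3.58.1 (R 4.3.3) over the 12 Scap or the 6 Insig arrays, with Benjamini-Hochberg adjustment over all probe sets at 0.05. Exact permutation tests were two-sided. The fit was tested on simulated data. The bins of mean signal were set, and 1 edge moved, after their values were seen. Deviations are from each gene's mean over 18 arrays. "Without overlap" means that every lung of one group lay above every lung of the other. Genes were named by role, by passing the test, as the 2 highest and lowest differences without overlap in each deletion comparison, and where probe sets differed in sign. Rpl12, the genes called without KO16 and single genes of other lists were added after their values were seen. Shares of all probe sets under the alternatives were added after their values were seen. Alternatives covered filters, scaling, the mean over a gene's probe sets, arrays in the fit, array weights, an unmoderated test and leaving out arrays. Promoter sequences came from RefSeq (GRCm38.p6).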

Additional observations from a re-analysis of the deposited data

How the results depend on the processing

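Directions of the 2 age medians and of the E18.5 and E17.5 deletion medians held under every alternative run. With array weights, 11 genes were called higher at E18.5, 10 higher and 14 lower at PN1, 6 higher at E17.5, 9 lower between control ages, 4 higher and 41 lower between deleted ages, and 4 higher and 19 lower for the difference of effects. Of all probe sets the same fits called 7.02% higher at E18.5, 26.8% higher and 41.3% lower at PN1, 18.4% higher at E17.5, 6.36% lower between control ages, 34.2% higher and 41.9% lower between deleted ages, and 27.8% higher and 36.6% lower for the difference of effects. The PN1 median was −0.026 (large −0.065) with them. Centring each array on its median gave PN1 medians of −0.088 (large −0.120, small −0.010), −0.402 between deleted ages and −0.250 for the difference of effects, and subunit levels of −0.184 and −0.164 in PN1 deleted lungs; it moved the median of all probe sets at PN1 from −0.06 to −0.19. Quantile normalization gave 2 genes higher (14.2% of all probe sets) and 13 lower (18.9%) between deleted ages, 0.034 for the small subunit's difference of effects and 0.030 for its level in PN1 deleted lungs. With it the PN1 median was 0.089 and the median of the difference of effects −0.003. All 18 arrays in 1 fit called 5 genes higher at PN1 (4.61% of all probe sets), 2 lower between control ages (2.04%) and 1 higher between deleted ages (22.2%). The 2 groups alone called 5 lower between control ages (5.4%) and 0 between deleted ages (0.197%), and the unmoderated test called 1 lower between control ages (1.05%). Without KO17 and KO18 the PN1 median was 0.168, 0 genes were called lower between deleted ages, and the difference of effects was 0.056 (large 0.059, small 0.040).

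Leaving out 1 array gave medians of 0.065 to 0.154 at E18.5, −0.003 to 0.075 at PN1 (large −0.037 to 0.060), 0.028 to 0.086 at E17.5, −0.214 to −0.123 between control ages, −0.292 to −0.203 between deleted ages and −0.134 to −0.021 for the difference of effects (small −0.106 to 0.034). Counts called were 0 to 7 higher and 0 to 8 lower at PN1, 0 to 8 lower between control ages, 0 to 4 higher and 0 to 38 lower between deleted ages, and 0 to 4 higher and 0 to 10 lower for the difference of effects. Where an arm kept 1 lung, that lung is assumed to vary like the other groups. Without KO16, the PN1 median turned to −0.003 and the counts at PN1, between control ages and for the difference of effects reached their ends. Without C13 the large subunit median at PN1 was −0.023, and the small subunit's difference of effects was 0.013 without KO12 and 0.034 without C14. The causes of these changes were not tested. No paired analysis was possible because the sample labels name no litter. Whether lungs of a group came from the same litter is not known.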
